A study of Mus musculus with 9 samples.

Results

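Potassium channel genes were followed in brain RNA from 9 mice, 3 sham, 3 ICH, and 3 feb. The genes were all rows named Kcn, a class letter or letters, and a number, whose RPKM reached 0.1 or more in 3 or more of the 9 mice. Kcne2, Kcnj13, Kcnj10, and Kcnj8, which mark choroid plexus, astrocytes, and pericytes, were left out by name. Of 92 genes with such a name in a table of 38621 genes, 4 were left out by name and 8 fell below the RPKM minimum (Kcna7, Kcna10, Kcne1, Kcne3, Kcnj1, Kcnj15, Kcnk16, and Kcnv2), which left 80 genes. The RPKM minimum counts mice of any group, so a gene high in only 1 group could pass it.

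All mice were C57BL/6, and the methods describe them as male. The ICH group received autologous blood injected into the brain, a model of intracerebral hemorrhage. The feb group received febuxostat, a xanthine oxidase inhibitor, by gavage once a day before the same blood injection. The sham group is described as saline-injected in the methods, and its labels call it untreated. The age of the mice, the dissected part of the brain, and the time after injection are not given for these libraries in the sources used here. A febuxostat group without hemorrhage was not analysed here, so feb mice were compared with ICH mice, which had the same injury, and with sham mice. Every feb or sham comparison with ICH uses the same 3 ICH mice.

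Potassium channels let potassium ions leave the cell and thereby set the resting potential, end each action potential, and limit how fast a neuron can fire again. Most are assemblies of pore-forming subunits. The voltage-gated families (Kcna, Kcnb, Kcnc, Kcnd, Kcnh, and Kcnq) open on depolarization, the Kcnf, Kcng, Kcns, and Kcnv subunits are electrically silent alone and modify Kcnb channels, the Kcnm, Kcnn, and Kcnt channels answer to calcium or sodium inside the cell, the Kcnj channels rectify inward, and the Kcnk channels carry leak current. The Kcnab, Kcne, Kcnip, and Kcnmb proteins form no pore and alter the gating or trafficking of the others.

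The pore-forming genes share a short coding stretch for the selectivity filter, the ring of backbone oxygens through which potassium passes. The stretch was searched in the longest coding sequence of each gene (GENCODE M21 transcripts, GRCm38) as a serine or threonine, any residue, a glycine, a tyrosine, phenylalanine, or leucine, and a second glycine. It was present in 68 of the 80 genes (85.0%) and in 1170 of 21782 protein-coding genes (5.37%). A match is a description of letters, and short matches outside the pore occur, as in Kcnh2, whose coding sequence held 2 matches. All 13 Kcnk genes held 2 copies, and the 12 genes without it were the 3 Kcnab, 1 Kcne, 4 Kcnip, and 4 Kcnmb genes. The sequences below are from some of the genes called in at least 1 comparison and show the filter codons of each. Capitals mark the 5 filter codons, the sequences read 5′ to 3′ on the coding strand, and each lies in 1 coding exon.
Kcnv1 (chr15:45109283-45109309, minus strand): atgactACAGTAGGATATGGGgacatt
Kcnma1 (chr14:23528407-23528433, minus strand): atgtctACAGTGGGTTATGGGgacgtt
Kcnh1 (chr1:192337748-192337774, plus strand): ctcaccAGTGTGGGCTTTGGTaacatt
Kcnh2 (chr5:24325549-24325575, minus strand): ctcaccAGCGTGGGCTTTGGCaatgtc
Kcnh3 (chr15:99232923-99232949, plus strand): ctcaccAGTGTGGGCTTCGGCaacgtg
Kcnt2 (chr1:140425272-140425298, plus strand): ttttctACTGTGGGCTTTGGGgatgtc
The fourth filter codon read TAT or TAC, for tyrosine, in Kcnv1 and Kcnma1. It read TTT or TTC, for phenylalanine, in Kcnh1, Kcnh2, Kcnh3, and Kcnt2.

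Values are RPKM, the reads of a gene divided by its exon length and by the depth of the library, so levels can be compared between genes per length. Between 23065757 and 29538009 reads per mouse were counted on genes. Differences were tested with limma on log2(RPKM + 0.1) over the 29025 genes of the table that passed the same RPKM minimum, and a fold change on this scale understates the change of low genes. A gene was called at an unadjusted p under 0.05, and p-values were adjusted over all 29025 genes by the Benjamini-Hochberg method. In bulk tissue, fewer cells of a type and less RNA per cell cannot be told apart.

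The 80 genes spanned a wide range of levels. The mean RPKM over the 9 mice was at least 1 in 61 genes, at least 10 in 21, and at least 20 in 7, and 19 genes lay under 1. Kcnab2, a cytoplasmic auxiliary subunit of Kcna channels, was highest with a mean RPKM of 51.0. Kcnj9, an inward rectifier gated by G proteins, followed at 35.5, Kcnip3, a calcium-binding partner of Kcnd channels, at 33.1, and Kcna1, an axonal delayed rectifier, at 30.6. Their ranges over the mice, 39.8 to 70.7 for Kcnab2, 26.8 to 42.9 for Kcnj9, 26.3 to 53.2 for Kcnip3, and 25.1 to 39.0 for Kcna1, overlapped between each pair of neighbours in that order. The summed RPKM of the 80 genes was 637 ± 39.9 (SD, n = 3) in sham mice, 657 ± 35.8 (SD, n = 3) in ICH mice, and 623 ± 23.5 (SD, n = 3) in feb mice.

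**Figure D1:**
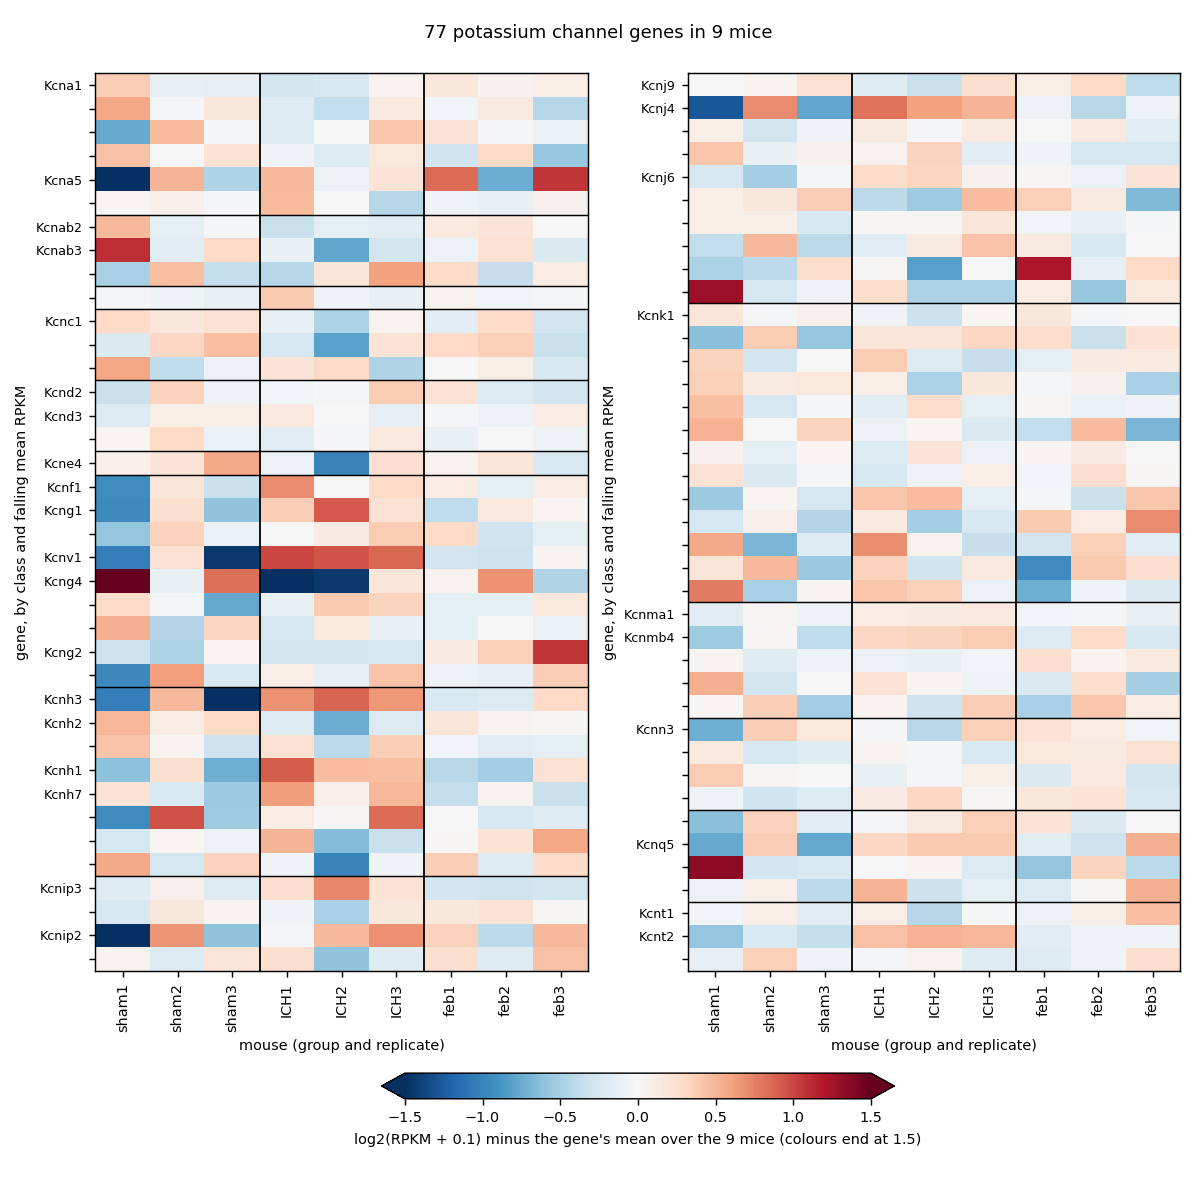
Colours give log2(RPKM + 0.1) minus the gene's mean over the 9 mice for each of 77 of the 80 genes (rows, grouped by class and ordered by falling mean RPKM, with labels for genes named in the text) in each mouse (columns). The sham columns vary most from mouse to mouse, with opposite colours in replicates 1 and 2 for Kcna5, Kcnh3, Kcnip2, and Kcnj4, and the ICH columns of Kcnv1, Kcnh3, Kcnh1, and Kcnt2 are red in all 3 mice.

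Sham mice were the least alike. On the log2 scale, 48 of the 80 genes had their largest SD in the sham group, 19 in the ICH group, and 13 in the feb group, and the median SD was 0.31 in sham mice, 0.28 in ICH mice, and 0.23 in feb mice. Sham replicate 1 was the highest of its group in 35 genes and the lowest in 28, sham replicate 2 in 36 and 31, and sham replicate 3 in 9 and 21. Lists of regional markers differed between mice as well. The mean log2 value of 12 genes of striatal medium spiny neurons (such as Drd1 and Adora2a) was 1.79, 4.55, and 3.10 in sham mice, 3.50, 4.07, and 4.45 in ICH mice, and 3.97, 3.04, and 3.68 in feb mice. The mean log2 value of 10 genes of hypothalamus and midbrain ranged from -0.44 to 2.36 in sham mice, from -0.54 to 2.31 in ICH mice, and from -0.12 to 2.56 in feb mice. Counts below are therefore given with and without single mice.

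Most genes called in ICH against sham were higher in ICH mice, and they came from several families. Among the called rises were Kcnv1, Kcnh3, Kcnj4, Kcnh1, Kcng1, Kcnt2, Kcnq5, Kcnf1, Kcnmb4, Kcnh7, Kcnip3, Kcnj6, and Kcnma1, and the called falls were Kcng4, Kcnab3, Kcnh2, and Kcnc1. That was 15 of 80 genes higher (18.75%), against 7.88% of all genes tested, and 4 lower (5%), against 4.42%. Kcnv1, Kcnh3, and Kcnj4 rose by more than 2-fold (3 of 80, against 1.46% of all genes), and Kcng4 fell by more than 2-fold (1 of 80, against 1.07%). The 3 ICH mice lay above the 3 sham mice in 10 genes (12.5%, against 13.2% of all genes) and below them in 3 (3.75%, against 6.22%). None of the 80 genes passed an adjusted p of 0.05 in limma, which 0.0241% of all genes did, and the lowest adjusted p was 0.0997, for Kcnt2. With voom on the recovered reads, the lowest adjusted p of the 80 genes was 0.204 in this comparison, 0.231 in feb against ICH, and 0.516 in feb against sham. The median log2 fold change of the 80 genes was 0.01, against 0.08 over all genes, and 58 of the 80 differed by less than 0.5 in either direction.

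The number of calls depended on single sham and ICH mice. Without sham replicate 1 it was 10 (9 higher and 1 lower, where 4.60% and 2.42% of all genes were called). Without sham replicate 3 it was 12 (9 and 3, against 4.06% and 2.42%), and without ICH replicate 2 it was 12 (11 and 1, against 5.14% and 2.63%). Without sham replicate 2, 28 genes were called (20 higher and 8 lower, where 11.9% and 6.62% of all genes were called). In that fit Kcnv1, Kcnh3, Kcnj4, and Kcnt2 passed adjustment in limma, with adjusted p-values of 0.0261, 0.0323, 0.0326, and 0.0364. Sham replicate 2 had the highest sham value of each, so leaving it out widened each difference. The share of all genes that passed adjustment in that fit was not counted. Without ICH replicate 3 the split was 11 higher and 9 lower (against 8.46% and 4.44%), and without ICH replicate 1 it was 11 and 2 (against 5.05% and 4.10%). When the samples were scaled to equal medians, the split was 11 higher and 5 lower, where 4% of all genes were called higher and 7.07% lower. After quantile normalization it was 12 and 6 (against 5.45% and 6.17%), and voom on the recovered reads gave 14 and 7 (against 6.30% and 6.60%). Scaling to equal medians moved the median of all genes from 0.08 to -0.03.

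Most genes called in feb against ICH were lower in feb mice. Among the called falls were Kcnv1, Kcnh1, Kcnip3, Kcnh7, Kcnt2, and Kcnma1, and the called rises were Kcng2 and Kcnh2. That was 7 of 80 genes lower (8.75%), against 6.16% of all genes, and 2 higher (2.5%), against 4.9%. Kcnv1 fell by more than 2-fold (1 of 80, against 1.05% of all genes), and no gene rose by more than 2-fold, which 1.38% of all genes did. The 3 feb mice lay below the 3 ICH mice in 13 genes (16.25%, against 10.1%) and above them in 6 (7.5%, against 7.04%). No gene of the 80 passed an adjusted p of 0.05 in limma, against 0.00689% of all genes, and the lowest adjusted p was 0.219. The median log2 fold change was -0.08, against -0.01 over all genes. The count was 14 without sham replicate 1 (5 higher and 9 lower, against 4.90% and 6.12% of all genes) and 14 without sham replicate 2 (3 and 11, against 5.49% and 6.80%). The split was 3 higher and 6 lower with equal medians (against 4.60% and 5.53%) and 4 and 7 with quantile normalization (against 5.399% and 6.14%). Without ICH replicate 1 it was 5 and 4 (against 5.53% and 4.78%), and without ICH replicate 3 it was 5 and 5 (against 4.13% and 6.59%). A fit of only these 2 groups called 16 genes (5 and 11, against 4.63% and 5.84%). This comparison and that of ICH with sham share the ICH mice.

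feb and sham mice differed in few of these genes. Kcng2 and Kcnt2 were called higher in feb mice (2 of 80, or 2.5%, against 5.63% of all genes), and no gene was called lower, against 2.9%. No gene of the 80 rose by more than 2-fold, against 1.59% of all genes, or fell by more than 2-fold, against 0.613%. The feb mice lay above the sham mice in 4 genes (5%, against 7.78%) and below them in 2 (2.5%, against 4.9%). No gene passed an adjusted p of 0.05 in limma, against 0.00345% of all genes, and the lowest adjusted p was 0.565. In this comparison, 72 of the 80 genes differed by less than 0.5 on the log2 scale. Without sham replicate 2 the count was 16 (13 higher and 3 lower, where 8.91% and 4.29% of all genes were called). Without feb replicate 2 it was 9 (5 and 4, against 8.82% and 5.24%). Without ICH replicate 3 it was 1 higher (against 5.21%), and without feb replicate 3 it was 1 higher (against 2.44%). Voom called 1 higher and 1 lower (against 4.86% and 4.15%). Of the 80 genes, 20 were called in at least 1 of the 3 comparisons and 60 in none. The share of all genes called in at least 1 comparison was not counted, so these numbers cannot be set against it.

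**Figure D2:**
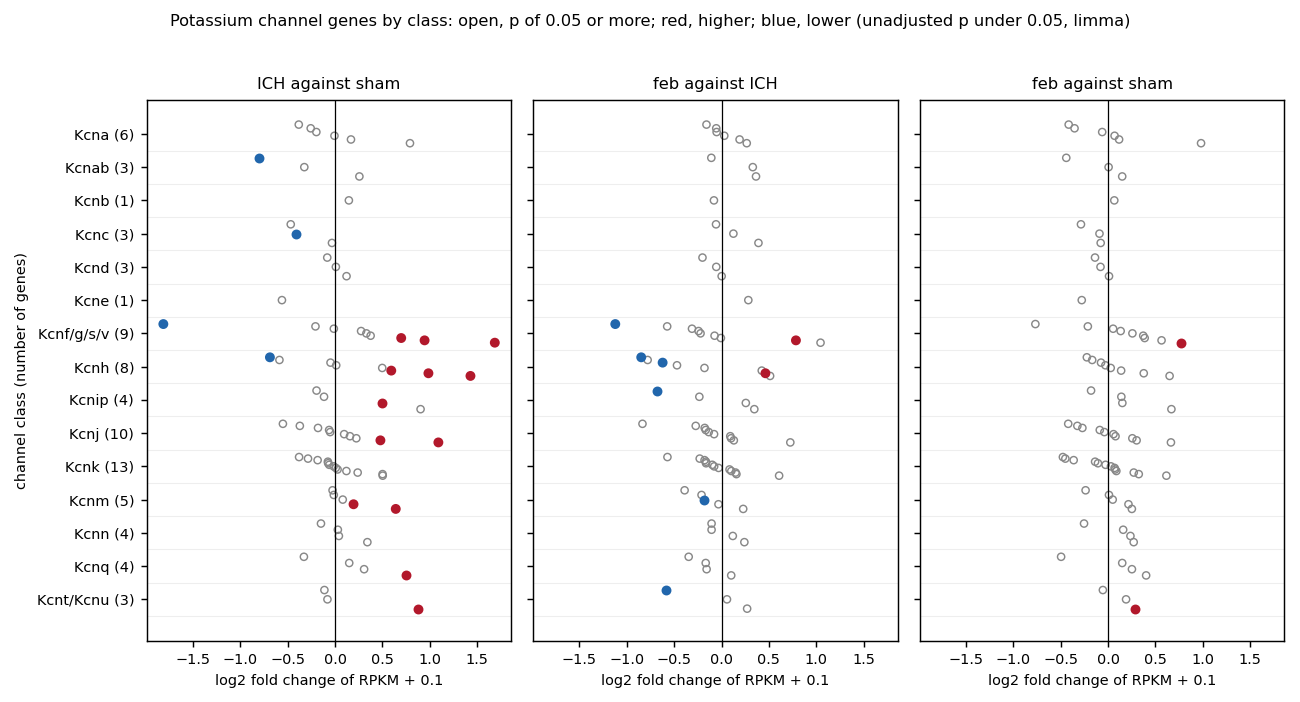
Each point is 1 of 77 of the 80 genes, placed by its log2 fold change of RPKM + 0.1 (x axis) within its class (y axis, number of genes in parentheses), in the 3 comparisons. Filled points had an unadjusted p under 0.05 in limma (red, higher; blue, lower), 17 in ICH against sham, 8 in feb against ICH, and 2 in feb against sham, and the Kcna, Kcnd, Kcnk, and Kcnn rows hold none.

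Among the delayed rectifier and fast voltage-gated families, calls were few. The 6 Kcna genes, which set the threshold and width of spikes in axons, had no call in any comparison. Kcna1 RPKM was 39.0, 28.1, and 27.8 in sham mice, 25.1, 25.7, and 31.3 in ICH mice, and 34.1, 31.6, and 32.5 in feb mice. The feb mice lay above the ICH mice, and the log2 difference of 0.27 (95% interval -0.06 to 0.59) was not called. The Kcna sum was 98.2 ± 7.17 (SD, n = 3) in sham mice, 87.5 ± 11.6 (SD, n = 3) in ICH mice, and 92.3 ± 5.85 (SD, n = 3) in feb mice.

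The Kcnc channels allow fast-spiking neurons to repolarize quickly. Kcnc1 fell in ICH mice, with RPKM of 18.5, 16.9, and 17.6 in sham mice against 13.8, 10.8, and 15.5 in ICH mice. The ranges did not overlap, and the log2 fold change was -0.41 ± 0.17 (SE; limma, adjusted p = 0.391). The call was lost under 7 of 19 settings, among them the omission of any sham mouse and of ICH replicate 1 or 2, where it was -0.27 without ICH replicate 2. The feb mice, at 13.4, 18.3, and 12.3, overlapped both groups. Kcnd2, which carries the fast transient current of dendrites, was at 15.5, 24.8, and 18.6 in sham mice, 18.9, 19.1, and 25.4 in ICH mice, and 22.6, 16.8, and 15.9 in feb mice. Those groups overlapped, and none of the 3 Kcnd genes was called.

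The largest changes were in the electrically silent subunits and the Kcnh family. Kcnv1, which joins Kcnb subunits and reduces their current, had RPKM of 0.964, 2.46, and 0.696 in sham mice, 4.26, 4.09, and 3.84 in ICH mice, and 1.68, 1.66, and 2.14 in feb mice. The ICH mice were above all others, while feb and sham mice overlapped because sham replicate 2 exceeded every feb mouse. Kcnv1 rose by 1.68 ± 0.37 (SE) on the log2 scale in ICH against sham (limma, adjusted p = 0.322) and fell by 1.12 ± 0.37 (SE) in feb against ICH (limma, adjusted p = 0.354). Both differences were called in all 19 settings, with log2 values between 1.16 and 2.18 in the first comparison.

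Kcnf1, the highest silent subunit, was at 4.92, 10.7, and 7.47 in sham mice, 15.5, 9.46, and 11.7 in ICH mice, and 10.2, 8.54, and 10.2 in feb mice. Sham replicate 2 overlapped the ICH mice, and the rise of 0.70 ± 0.27 (SE; limma, adjusted p = 0.386) was not called without sham replicate 1 (0.41) or 3, or without ICH replicate 1 (0.51) or 3. Kcng4 went the other way, with RPKM of 5.46, 1.32, and 2.60 in sham mice, 0.408, 0.460, and 1.64 in ICH mice, and 1.49, 2.34, and 1.01 in feb mice. It fell by 1.81 ± 0.60 (SE) on the log2 scale in ICH mice (limma, adjusted p = 0.353), although ICH replicate 3 lay above sham replicate 2. The fall was not called without sham replicate 1 (-1.31), ICH replicate 1 (-1.49), or ICH replicate 2 (-1.56). Kcng2 was at 0.985, 0.870, and 1.27 in sham mice, 1.01, 1.02, and 1.03 in ICH mice, and 1.36, 1.63, and 2.74 in feb mice. All feb mice exceeded all others. Kcng2 rose by 0.78 ± 0.25 (SE) against ICH (limma, adjusted p = 0.344) and by 0.77 ± 0.25 (SE) against sham (limma, adjusted p = 0.565), in all 19 settings. Without feb replicate 3, the highest mouse, the rises were 0.51 and 0.49. An opposite-strand gene covers 9.1% of its exons, and, although the library kit was stranded, the sources used here do not state whether counting used strand. The summed RPKM of the 9 silent subunits was 20.02 to 26.7 in sham mice, 28.8 to 31.7 in ICH mice, and 23.6 to 26.0 in feb mice, so the ICH sums lay above the others.

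Of the 8 Kcnh genes, 3 rose and 1 fell in ICH mice, against 7.88% and 4.42% of all genes tested. Kcnh3, a subthreshold channel found mainly in forebrain neurons, was at 4.28, 12.4, and 3.02 in sham mice, 14.3, 16.4, and 14.003 in ICH mice, and 7.55, 7.69, and 11.0 in feb mice. Sham replicate 2 was 12.4 against 4.28 or less in the other sham mice, and all ICH mice were still above it. The rise in ICH mice was 1.43 ± 0.44 (SE) on the log2 scale (limma, adjusted p = 0.347) and was called in all 19 settings. It was 2.02 without sham replicate 2. All feb mice lay below all ICH mice, and the difference of -0.78 was not called (limma, adjusted p = 0.531).

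Kcnh1, a channel that opens slowly from negative potentials, was at 3.61, 6.62, and 3.32 in sham mice, 10.6, 7.79, and 7.72 in ICH mice, and 4.17, 3.92, and 6.52 in feb mice. The ICH mice exceeded both other groups. It rose by 0.98 ± 0.29 (SE) in ICH mice (limma, adjusted p = 0.345) and fell by 0.85 ± 0.29 (SE) in feb against ICH mice (limma, adjusted p = 0.368). The fall was not called without ICH replicate 1 (-0.70) or feb replicate 1 (-0.76) or 2 (-0.71). Kcnh7, a channel with strong inactivation and slow closing, was at 5.98, 4.39, and 3.51 in sham mice, 8.05, 5.47, and 7.35 in ICH mice, and 3.99, 5.34, and 4.07 in feb mice. ICH replicate 2 overlapped sham replicate 1. The rise of 0.59 ± 0.22 (SE; limma, adjusted p = 0.381) and the fall of 0.62 ± 0.22 (SE) in feb mice (limma, adjusted p = 0.378) were lost under 6 and 4 settings. Those included the omission of ICH replicate 1 (0.48 and -0.51) or ICH replicate 3 (0.54 and -0.57) for both, of sham replicate 2 (0.57) or 3 (0.42) for the rise, and of feb replicate 1 (-0.55) or 3 (-0.56) for the fall. Exons of Gca on the opposite strand cover 4.57% of the Kcnh7 exons.

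Kcnh2, a close relative of Kcnh7 that is also the repolarizing channel of heart muscle, changed in the opposite direction. Its RPKM was 12.03, 9.22, and 10.46 in sham mice, 7.41, 5.03, and 7.33 in ICH mice, and 9.66, 8.71, and 8.62 in feb mice. The ICH mice lay below both other groups. The log2 fold change was -0.69 ± 0.16 (SE) in ICH against sham (limma, adjusted p = 0.334), called in all 19 settings, and 0.46 ± 0.16 (SE) in feb against ICH (limma, adjusted p = 0.378). The second was not called without ICH replicate 2 (0.28) or feb replicate 1 (0.41). Kcnh2 and Kcnh7 are both Kcnh genes, so the opposite changes were between members of 1 family. Their difference was not tested.

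**Figure D3:**
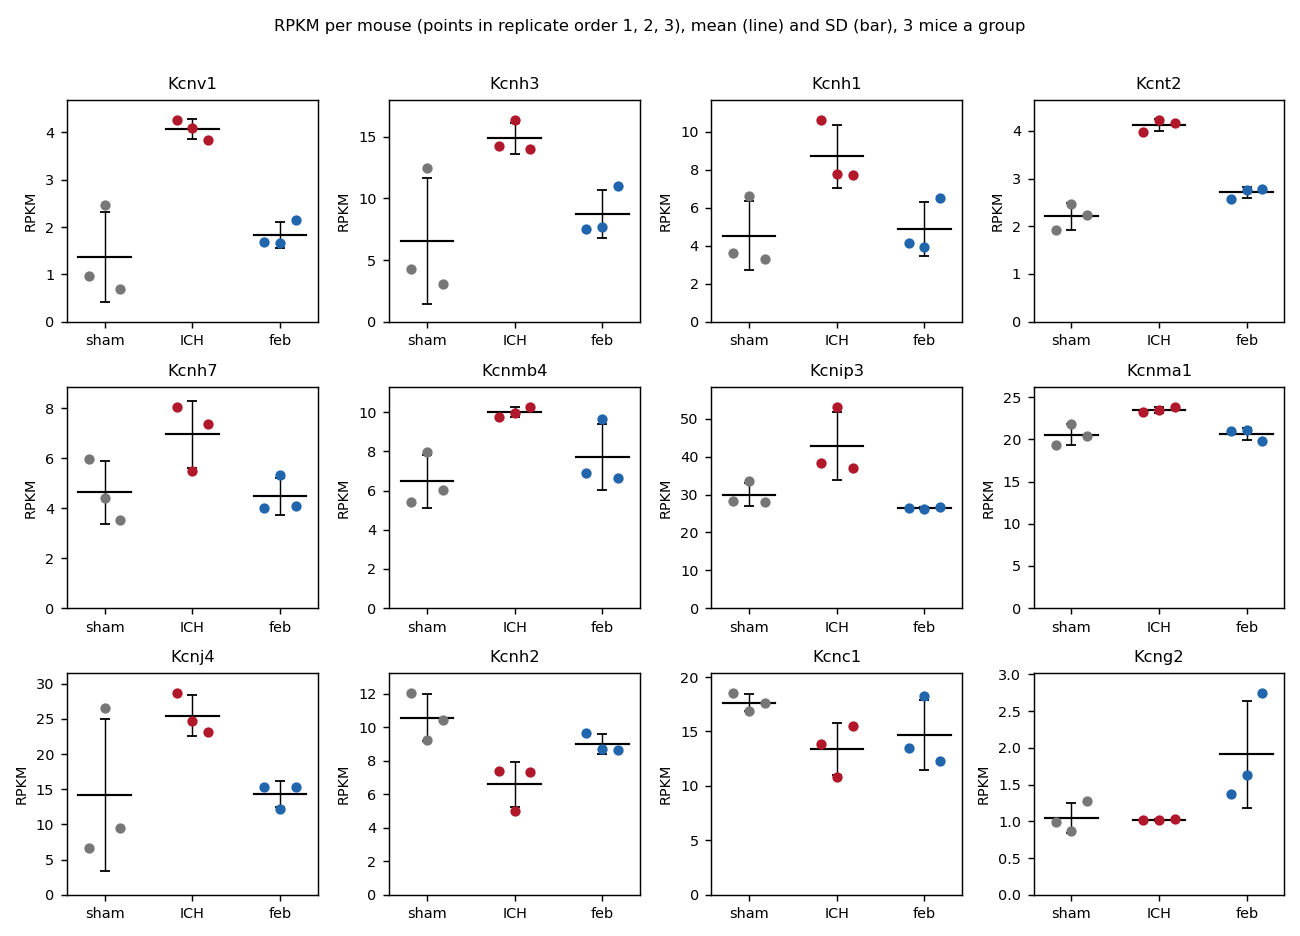
RPKM of 12 genes in each mouse (points, in the order of replicates 1, 2, and 3), with the group mean (line) and SD (bar), on axes from 0. In Kcnv1, Kcnh3, Kcnh1, Kcnt2, Kcnmb4, Kcnip3, and Kcnma1 the 3 ICH mice lie above all sham and feb mice, in Kcnh2 they lie below both, and in Kcnj4 sham replicate 2 (26.6) lies within the ICH range.

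The Kcnq genes carry the M current, which restrains repetitive firing. Kcnq5 rose by 0.75 ± 0.32 (SE; limma, adjusted p = 0.402) with overlap.

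Among channels gated by ions inside the cell, Kcnt2 had the lowest adjusted p-value of all 80 genes in ICH against sham. Kcnt2 is a channel opened by intracellular sodium. It was at 1.91, 2.47, and 2.24 in sham mice, 3.98, 4.22, and 4.16 in ICH mice, and 2.58, 2.77, and 2.79 in feb mice. The 3 groups did not overlap, with sham lowest and ICH highest. The log2 fold change was 0.88 ± 0.12 (SE) in ICH against sham (limma, adjusted p = 0.0997) and -0.59 ± 0.12 (SE) in feb against ICH (limma, adjusted p = 0.219), both called in all 19 settings. In feb against sham it was 0.29 ± 0.12 (SE; limma, adjusted p = 0.580), and this call was lost under 10 settings, among them equal medians (0.18), quantile normalization (0.20), voom (0.25), and the omission of sham replicate 1 (0.19) or 3 (0.30), ICH replicate 1 or 3, or feb replicate 2 or 3 (0.27 each). An opposite-strand gene covers 1.48% of its exons. Its close relative Kcnt1 was at 9.12, 10.1, and 8.40 in sham mice, 10.1, 6.99, and 9.22 in ICH mice, and 8.85, 10.04, and 13.0 in feb mice. Those groups overlapped, and the ICH against sham difference was -0.08 (95% interval -0.48 to 0.32).

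Kcnma1, the large-conductance channel opened jointly by calcium and voltage, was at 19.4, 21.9, and 20.4 in sham mice, 23.2, 23.5, and 23.9 in ICH mice, and 21.0, 21.2, and 19.9 in feb mice. The ICH mice lay above the rest in a narrow range. The differences were small, 0.20 ± 0.07 (SE) in ICH against sham (limma, adjusted p = 0.366) and -0.19 ± 0.07 (SE) in feb against ICH (limma, adjusted p = 0.397). The first was lost under equal medians (0.09), eBayes without trend, voom (0.13), and without sham replicate 1 (0.15) or 3 or ICH replicate 3 (0.18). The second was lost under 8 settings, among them the omission of any ICH mouse or of feb replicate 3 (-0.16). Kcnmb4, the auxiliary subunit of Kcnma1 channels in neurons, was at 5.42, 7.98, and 6.01 in sham mice, 9.77, 9.97, and 10.3 in ICH mice, and 6.88, 9.65, and 6.65 in feb mice. All ICH mice exceeded all others. It rose by 0.64 ± 0.17 (SE) in ICH mice (limma, adjusted p = 0.341) in all 19 settings, and the feb against ICH difference of -0.39 was not called. The opposite-strand genes Kcnmb4os1 and Kcnmb4os2 cover 10.7% and 20.9% of its exons, with mean RPKM of 19.99 and 3.96. The summed RPKM of the 5 Kcnm genes was 26.6 to 31.3 in sham mice, 34.6 to 35.7 in ICH mice, and 28.04 to 32.6 in feb mice. None of the 4 Kcnn genes, channels opened by calcium alone, was called. Kcnn3, the highest of them, was at 2.70, 5.87, and 5.10 in sham mice, 4.48, 3.37, and 5.85 in ICH mice, and 5.28, 4.91, and 4.39 in feb mice, which overlapped.

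Among inward rectifiers, Kcnj4 and Kcnj6 rose in ICH mice. Kcnj4, a constitutive inward rectifier of forebrain neurons, was at 6.65, 26.6, and 9.42 in sham mice, 28.6, 24.7, and 23.1 in ICH mice, and 15.4, 12.2, and 15.3 in feb mice. Sham replicate 2 lay within the ICH range, and the other sham mice lay below every feb mouse. The rise was 1.09 ± 0.42 (SE; limma, adjusted p = 0.386) and reached 1.67 without sham replicate 2. It was not called without sham replicate 1 (0.68) or 3 (0.92), without any single ICH mouse (1.003 to 1.16), or in a fit of only the 2 groups. All feb mice lay below all ICH mice, and the difference of -0.83 was not called (limma, adjusted p = 0.494). Kcnj6, a subunit gated by G proteins, rose by 0.48 ± 0.14 (SE; limma, adjusted p = 0.345) without overlap. Its partner Kcnj9 was at 34.9, 36.1, and 40.9 in sham mice, 30.9, 27.7, and 41.4 in ICH mice, and 37.4, 42.9, and 26.8 in feb mice, with a difference of -0.18 (95% interval -0.62 to 0.26) between ICH and sham.

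The 13 Kcnk genes, the leak channels, had no call in any comparison. Of all genes, 7.88% were called higher and 4.42% lower in ICH against sham. The shares were 4.9% and 6.16% in feb against ICH, and 5.63% and 2.9% in feb against sham. At these shares few of 13 genes would be called, so no call says little. Their mean RPKM ranged from 0.07 to 22.2, and Kcnk15 and Kcnk18 were near the RPKM minimum. Kcnk7 came near a call, at 0.61 in feb against ICH (limma, unadjusted p = 0.056). Kcnk1, the highest, was at 24.99, 21.6, and 23.05 in sham mice, 21.3, 17.6, and 22.6 in ICH mice, and 24.8, 21.6, and 21.98 in feb mice. The groups overlapped, and the ICH against sham difference was -0.18 (95% interval -0.43 to 0.07). The Kcnk log2 fold changes ranged from -0.38 to 0.50 in ICH against sham and from -0.57 to 0.61 in feb against ICH, and the summed RPKM was 55.9 ± 3.58 (SD, n = 3), 54.0 ± 3.38 (SD, n = 3), and 55.3 ± 1.79 (SD, n = 3) in sham mice, ICH, and feb mice.

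A few auxiliary subunits were called, in both directions. In ICH against sham, 2 of the 12 genes without the filter stretch rose and 1 fell, and 13 of the 68 genes with it rose and 3 fell. Of all genes tested, 7.88% were called higher and 4.42% lower in that comparison. Kcnip3, which also acts as a calcium-regulated transcriptional repressor, was at 28.3, 33.6, and 28.2 in sham mice, 38.4, 53.2, and 37.0 in ICH mice, and 26.3, 26.3, and 26.6 in feb mice. The ICH mice lay above both groups, and the feb mice lay just below the sham mice. It rose by 0.50 ± 0.14 (SE) in ICH mice (limma, adjusted p = 0.345) and fell by 0.68 ± 0.14 (SE) in feb against ICH mice (limma, adjusted p = 0.219), both in all 19 settings. In feb against sham the difference of -0.18 was not called. Kcnab3 fell by 0.80 ± 0.31 (SE) in ICH mice (limma, adjusted p = 0.382), with overlap. It lay at 34.5 in sham replicate 1 and between 9.26 and 19.5 in the other 8 mice, and Kcnab3os on the opposite strand, with a mean RPKM of 31.4, covers 5.13% of its exons. Kcnab2, the highest of all 80 genes, was at 70.7, 45.6, and 49.2 in sham mice, 39.8, 45.3, and 44.8 in ICH mice, and 55.6, 57.6, and 50.2 in feb mice. The ICH mice lay below both other groups, and the differences of -0.32 (95% interval -0.68 to 0.03) and 0.33 (95% interval -0.02 to 0.68) were not called. Without sham replicate 2 the first was -0.45 and was called. Kcne4, the only Kcne gene among the 80, was low, at 0.892, 0.979, and 1.30 in sham mice, 0.784, 0.372, and 1.02 in ICH mice, and 0.881, 0.969, and 0.702 in feb mice, and had no call.

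Markers of some brain regions and of some other cells differed between these groups. Of all genes, 7.88% were called higher and 4.42% lower in ICH against sham. The shares were 4.9% and 6.16% in feb against ICH, and 5.63% and 2.9% in feb against sham. In ICH against sham, no gene was called in the lists of hippocampus, hypothalamus and midbrain, oligodendrocytes, endothelium, pericytes and smooth muscle, or blood. In that comparison 1 of 10 astrocyte genes was called higher and 1 of 7 genes of oligodendrocyte precursors lower. In feb against ICH, endothelium had 3 of 10 genes lower and 1 higher, and pericytes and smooth muscle 2 of 11 lower. Hippocampus and hypothalamus and midbrain each had 1 of 10 higher. Astrocytes had 2 higher and 1 lower. In feb against sham, endothelium had 4 lower and 1 higher, and pericytes and smooth muscle 3 lower. There, 3 oligodendrocyte, 2 oligodendrocyte precursor, and 2 astrocyte genes were lower, and 3 hippocampal genes and 1 of hypothalamus and midbrain higher. Of 12 genes of cortical excitatory neurons, 7 were called higher in ICH than in sham mice (among them Tbr1 and Slc17a7), with a median log2 fold change of 1.46, and 4 were called lower in feb than in ICH mice (median -0.44) and 4 higher in feb than in sham mice. Their summed RPKM was 46.2 to 79.8 in sham mice, 96.6 to 164 in ICH mice, and 81.2 to 98.6 in feb mice. Of 12 thalamic genes, 2 were called lower in ICH than in sham mice (median -0.95), with sums of 289 to 435.5 in sham and 92.8 to 321 in ICH mice. Of the 12 striatal genes none was called in limma at an unadjusted p under 0.05 in any comparison, with sums of 121 to 695 in sham mice, 301 to 613 in ICH mice, and 240 to 467 in feb mice. Sham replicate 2 held the highest striatal sum of all 9 mice and the highest sham values of Kcnj4, Kcnh3, Kcnv1, Kcnh1, and Kcnf1. Sham replicate 1 held the lowest striatal sum and the highest sham values of Kcnab3, Kcng4, and Kcnab2. These genes are examples, as sham replicates 2 and 1 were the highest sham mouse in 36 and 35 of the 80 genes. ICH replicate 1 had the lowest ICH striatal sum (301) but the highest ICH values of Kcnj4, Kcnv1, Kcnh1, and Kcnf1. It also had the highest ICH value of Kcnab3 and the lowest of Kcng4 and Kcnab2, while Kcnh3 was highest in ICH replicate 2. Choroid plexus genes were called lower in feb than in ICH mice in 9 of 9 cases (median -2.24), with sums of 462 to 974 in ICH and 33.2 to 91.6 in feb mice. Of 7 blood cell genes, 4 were called lower in feb than in ICH mice. Of 10 microglial genes, 2 were called higher in ICH than in sham mice and 5 lower in feb than in ICH mice. In every list all genes were above 0 in at least 1 mouse, and 10 of 10 pan-neuronal genes were measured, with sums of 1106 to 1821 in sham, 1030 to 1168 in ICH, and 1073 to 1464 in feb mice. In ICH against sham, 2 of these were called higher (Rbfox3, 0.32, and Syt1, 0.29) and 2 lower (the neurofilament genes Nefh, -1.31, and Nefm, -1.07), and in feb against ICH 1 was called higher. Of 10 interneuron genes, Vip was called higher (1.36) and Pvalb, a marker of fast-spiking interneurons, lower (-0.91) in ICH against sham, 1 was called lower in feb against ICH, and 1 higher in feb against sham. The part of regional composition in the channel differences was not tested.

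**Figure D4:**
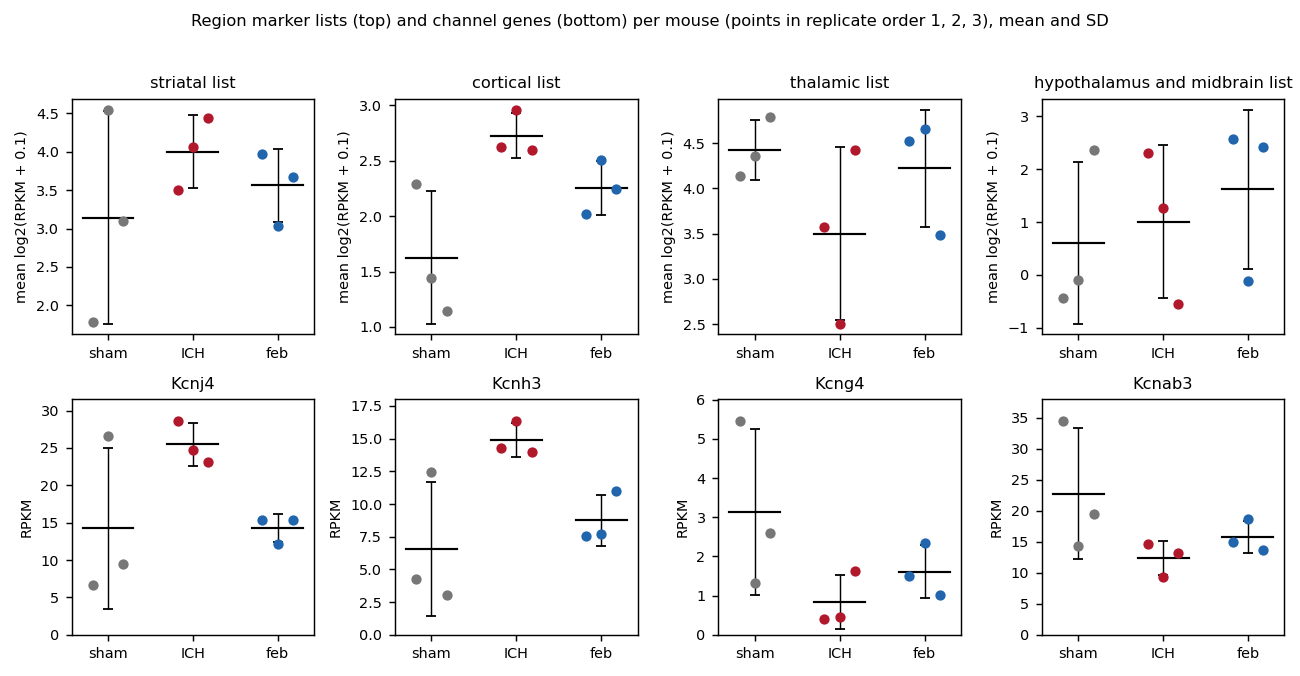
Top, mean log2(RPKM + 0.1) of 4 lists of regional marker genes in each mouse (points, in the order of replicates 1, 2, and 3), with group mean and SD. Bottom, RPKM of Kcnj4, Kcnh3, Kcng4, and Kcnab3 in the same mice. Sham replicate 2 is the highest sham mouse in the striatal list (4.55), Kcnj4 (26.6), and Kcnh3 (12.4). Sham replicate 1 is the lowest sham mouse in the striatal list (1.79) and the highest in Kcng4 (5.46) and Kcnab3 (34.5). ICH replicate 1 is the lowest ICH mouse in the striatal list (3.50) and Kcng4 (0.408), and the highest in Kcnj4 (28.6) and Kcnab3 (14.7).

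Other genes of membrane excitability were counted in the same fit. Of 8 sodium channel genes, which start the action potential, Scn2a rose by 0.40 ± 0.15 (SE) and Scn1a fell by 0.60 ± 0.21 (SE) in ICH against sham, with none called in the other comparisons. Scn2a is the channel of excitatory neurons above all, and Scn1a that of fast-spiking interneurons. Of 8 calcium channel genes, 1 was called higher in ICH against sham (Cacna1e, 0.59 ± 0.22, SE), 1 lower in feb against ICH (Cacna1i, -0.34), and 1 higher in feb against sham. None of 4 HCN channel genes, which carry the pacemaker current, was called in limma at an unadjusted p under 0.05 in any comparison. Of 12 channel partners, 11 passed the RPKM minimum, and Lgi1 was called higher in ICH against sham (0.41 ± 0.17, SE) and Dpp6, a partner of Kcnd channels, higher in feb against ICH (0.22). Abcc9, a subunit that joins ATP-sensitive Kcnj channels, was called lower in feb against sham (-0.35). Of 7 genes of potassium transport, 1 was called higher and 3 lower in ICH against sham, 2 lower in feb against ICH, and 2 lower in feb against sham.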

How the data were processed

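Brain RNA came from 9 mice, grouped by their labels as 3 sham, 3 ICH, and 3 feb. The authors trimmed reads (Trimmomatic 0.36), collapsed them by UMI, aligned them to GRCm38, counted them on exons (featureCounts, Subread 1.5.1, per the submitters' processing notes), tested with edgeR, and deposited an RPKM for every gene and mouse beside exon length and position. The library kit was stranded, and the strand setting in counting and the annotation release are not given in the sources used here. Whole reads were recovered from RPKM and exon length for 100% of values (within 0.01 of a read). The study describes 3 mice per group, so p-values measure the spread between mice. Differences were tested with limma 3.58.1 (R 4.3.3; lmFit, eBayes with trend) on log2(RPKM + 0.1), with all 9 samples in 1 fit and no block, over 29025 genes, and this test was tried on simulated data first. The replicate numbers are shared in the labels only.

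Genes were named with values where they had an unadjusted p under 0.05 and a fold change over 2, were called and among the 6 largest rises or falls without overlap in a comparison, or were highest of their class. The called genes Kcnab3, Kcng1, Kcnj6, and Kcnq5 were named after their values were seen. Some genes that met this rule are not reported here, and 77 of the 80 genes were drawn. The genes, classes, and lists were chosen with earlier results of these data known. Coding sequences came from GENCODE M21, in which 63 of 80 gene positions equal the deposited ones. The alternatives changed the pseudocount (1 or 0.01), the filter (none, or a minimum RPKM of 1), the scaling (equal medians or quantile), the samples in the fit (only 2 groups), the variance model (no trend), the block (replicate number), and the test (voom on recovered reads), or left out each mouse in turn. Tables were made with Python 3.11.15, pandas 2.3.3, and numpy 2.4.6.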

Additional observations from a re-analysis of the deposited data

How the results depend on the processing

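The number of potassium channel genes called in ICH against sham was within 1.5 times the 19 reported under all 10 settings that kept every mouse (15 to 21). Those settings called 4% to 9.99% of all genes higher and 3.55% to 7.07% lower. Leaving out 1 mouse gave 10 to 28, where 4.06% to 11.9% of all genes were called higher and 2.42% to 6.62% lower. In feb against ICH, a fit of only the 2 groups called 16 genes in place of 9, where 4.63% of all genes were called higher and 5.84% lower. The other settings that kept every mouse gave 9 to 11, where 4.34% to 5.399% of all genes were called higher and 4.82% to 7.76% lower. Leaving out 1 mouse gave 6 to 14, where 3.26% to 5.53% of all genes were called higher and 4.14% to 6.80% lower. In feb against sham, equal medians, quantile normalization, and a fit of only the 2 groups each called 1 gene higher in place of 2. The shares of all genes called higher were 3.45%, 4.08%, and 5.07%, and those called lower were 5.17%, 4.36%, and 2.605%. Pseudocount 1 and eBayes without trend each called 3 genes higher. With these 2 settings, 5.58% and 5.52% of all genes were called higher and 2.76% and 2.54% lower. Leaving out 1 mouse gave 1 to 16, where 2.44% to 8.91% of all genes were called higher and 1.51% to 5.24% lower. In no setting was the direction of such a difference reversed: over 26 called differences of genes that met the naming rule and 494 settings, 425 kept the call and 69 lost it, and 14 differences were called in every setting. Same-numbered samples shared only a number, with correlations of their deviations from the group means between -0.13 and 0.02 over 9 pairs. The replicate block called 17, 11, and 2 genes in the 3 comparisons. The shares of all genes called higher and lower with the block were 6.00% and 3.55%, 4.34% and 4.82%, and 4.38% and 2.04%. With 3 mice a group and SEs of 0.07 to 0.62 on the log2 scale, small changes of low or variable genes could not be seen.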

Other observations

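Several channel genes without a call varied strongly between mice of 1 group; they were picked after their values were seen. Kcnip2, a partner of Kcnd channels, had RPKM of 2.37, 11.9, and 4.90 in sham mice, 7.33, 10.6, and 12.1 in ICH mice, and 9.56, 5.70, and 10.5 in feb mice. Over the 3 sham and the 3 ICH mice, but not over the 3 feb mice, its order was that of the striatal marker list, which was lowest in sham replicate 1 and highest in sham replicate 2. Kcna5 was at 0.970, 5.28, and 2.64 in sham mice, 5.18, 3.44, and 4.26 in ICH mice, and 6.63, 2.16, and 7.86 in feb mice. Of the 61 genes with a mean RPKM of at least 1, the highest mouse exceeded the lowest by over 2-fold in 31 and by over 5-fold in 5 (Kcng4, Kcna5, Kcnv1, Kcnh3, and Kcnip2). At the other end, Kcnma1 differed by 1.23-fold and Kcnd3, a transient-current channel, by 1.28-fold over all 9 mice.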
